A study of Xenopus laevis with 3 samples.

Results

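The proteins of the cytosolic ribosome were followed here through 72 of the 9271 gene symbols on the array, which were measured by 149 of its 32635 probe sets (Xl-PSIDs). These are the Xl-PSIDs that carry exactly 1 gene symbol in the platform's annotation, where that symbol, with its L or S ending removed, starts as a ribosomal protein name of the large subunit (*rpl*, *rplp*) or of the small subunit (*rps*, *rpsa*). In all, 15505 Xl-PSIDs carried 1 symbol, and the 8 Xl-PSIDs of the ribosomal S6 kinases, which share the letters *rps* but are not part of the ribosome, were left out. Of the 72 genes, 46 belonged to the large subunit with 93 Xl-PSIDs and 26 to the small subunit with 56. *X. laevis* is an allotetraploid frog whose chromosomes come in a long (L) and a short (S) set, so that many genes have an L and an S homeolog. Of the Xl-PSIDs, 73 were assigned to an L copy, 73 to an S copy and 3 to a symbol without either letter, for 90 distinct symbols. The rule used names only and no intensity.

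The 3 *s50* arrays, named s50_1, s50_2 and s50_3, came from larval inner ears dissected at stages 50 to 52, which is 15 to 21 days after fertilization. Each array held RNA pooled from several larvae, 15 for s50_1, 38 for s50_2 and 24 for s50_3, and labelling began with 1, 1 and 0.7 µg of total RNA. No strain, genotype or treatment is given for the animals. All 3 pools belong to 1 condition, so no comparison between groups and no test was made, and each value is described beside the same value over all Xl-PSIDs. Values are GCRMA intensities on the log2 scale, where a difference of 1 is a doubling, and errors are SDs over the 3 pools. The brightness of an Xl-PSID depends on its probes as well as on its transcript, so the order of intensities is not an order of transcript abundance. A mean of at least 4 counted as detection. In the study's methods the same minimum average was a condition for calling an Xl-PSID upregulated, not for detection. In whole tissue, fewer cells of a type and less RNA per cell cannot be told apart.

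The cytosolic ribosome translates all nuclear messages. Its small subunit binds the mRNA and reads the codons, and its large subunit joins the amino acids and threads the new protein out through an exit tunnel. Its proteins are made in matched amounts in every growing cell, and in vertebrates their messages share a run of pyrimidines at the 5′ end through which their translation is controlled together. *Xenopus* oocytes and embryos were among the first systems in which this common control was studied.

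Most ribosomal protein Xl-PSIDs lay at the top of the intensity scale. Of the 149, 127 (85.2%) were detected, against 64.8% of all Xl-PSIDs. A mean of at least 14 was reached by 103 (69.1%), against 1.31% of all Xl-PSIDs. The members had a median of 14.89, with quartiles of 11.54 and 15.19, while all Xl-PSIDs together had a median of 7.49. On s50_1, s50_2 and s50_3 the members had medians of 14.84, 14.92 and 14.97. Members made up 26 of the 50 brightest Xl-PSIDs of the array, 55 of the 100 brightest and 91 of the 200 brightest, but only 2 of the 10 brightest. The highest value on any array was 15.996, and 64 members lay within 1 of the top of the scale. Differences among these members are small beside the distance to the rest, and the raw scans, which could show whether such spots were saturated, were not analysed here.

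**Figure D1:**
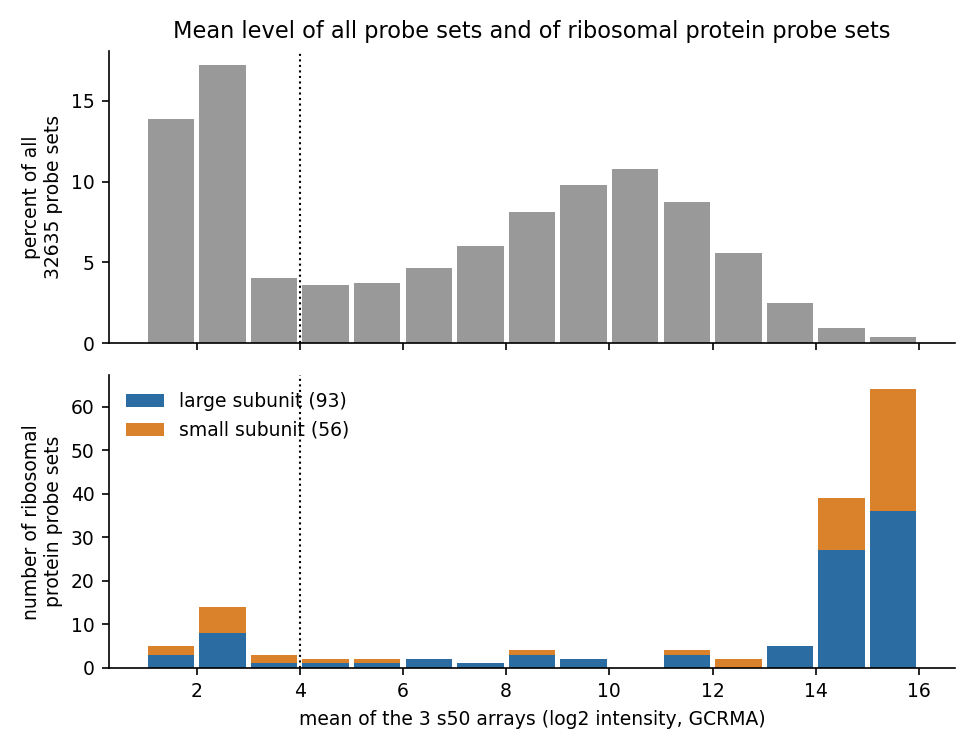
Histograms of the mean GCRMA intensity (x axis, log2) in bins of 1, as a percent of all 32635 Xl-PSIDs (upper plot) and as the number of ribosomal protein Xl-PSIDs stacked by subunit (lower plot), with a dotted line at the detection threshold of 4. Of the members, 64 lie between 15 and 16, where 0.368% of all Xl-PSIDs lie, and 19 form a separate group below 3.

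The intensities fell into a large bright group, a small dark group and few values between. Between 15 and 16 there were 64 members and between 14 and 15 another 39. The range from 4 to 14, which held most Xl-PSIDs of the array, had 24 members. Below 3 there were 19 members, at the intensities where 31.1% of all Xl-PSIDs lay, and 3 more lay between 3 and 4. The dimmest detected member had a mean of 4.08 and the brightest undetected member 3.41, and any threshold between these values gives the same count. On the upper side, the member just below 14 had 13.97 and the one just above it 14.12.

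The brightest member was an Xl-PSID of *rps3a.S*, a small subunit protein that lies on the side where the mRNA leaves, with 15.78, 15.73 and 15.82 on s50_1, s50_2 and s50_3. The large subunit protein gene *rpl32.L* followed with 15.52, 15.60 and 15.64 in the same order. The former was the brighter one on every array. A second Xl-PSID of *rps3a.S* had 15.51, 15.48 and 15.56. The gene *rps14.S*, a protein of the platform of the small subunit, had 15.48, 15.49 and 15.52. That of *rpl23a.S*, which sits at the mouth of the exit tunnel, had 15.46, 15.50 and 15.51. These last 3 Xl-PSIDs overlapped on the arrays, and their order is not resolved. The remaining 5 of the 10 brightest members were Xl-PSIDs of *rps19.S* (15.45 ± 0.05), *rpl9.L* (15.41 ± 0.02), *rps10.S* (15.40 ± 0.04), *rpl7a.L* (15.40 ± 0.08) and *rpl18.S* (15.39 ± 0.07), which lie within their own spread of each other. In humans *rps19* is known as a gene of Diamond-Blackfan anaemia, an inherited failure of red cell formation.

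The large and the small subunit were bright alike. Of the 93 large subunit Xl-PSIDs, 81 were detected and 63 had a mean of at least 14, with a median of 14.85. Of the 56 small subunit Xl-PSIDs, 46 were detected and 40 had a mean of at least 14, with a median of 15.01. The medians were 14.72, 14.87 and 14.90 for the large subunit and 14.98, 15.01 and 15.06 for the small subunit on s50_1, s50_2 and s50_3. The small subunit median was thus the higher one on each array, and no test was made of it since the probes differ. By gene, 63 of the 72 had at least 1 Xl-PSID with a mean of at least 14, and 68 had at least 1 detected. Shares by gene over the whole array were not computed, and the shares by Xl-PSID given above are not their equal.

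Proteins with a known place in the ribosome were described by their role. The stalk of the large subunit recruits the elongation factors and is built of a base protein and paired acidic proteins. The base gene *rplp0.S* had 14.72, 14.73 and 14.84 on s50_1, s50_2 and s50_3 for one Xl-PSID and 7.53, 8.44 and 8.52 for another. The acidic protein gene *rplp1.L* had 14.54, 14.61 and 14.71, and *rplp2.L* had 14.94, 15.08 and 15.12. All 6 stalk Xl-PSIDs were detected and 5 had a mean of at least 14, the second one of *rplp0.S* being the exception.

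The genes *rpl5* and *rpl11* encode proteins that enter the large subunit together with its smallest RNA and that in mammals also bind the p53 regulator Mdm2 when ribosome assembly fails. Their 3 Xl-PSIDs lay between 15.05 and 15.16. On s50_1, s50_2 and s50_3 the values were 15.15, 15.12 and 15.20 for *rpl5.L*, 14.99, 15.06 and 15.10 for *rpl5.S* and 15.06, 15.12 and 15.14 for *rpl11.S*. The L and S values of *rpl5* did not overlap, L being the brighter, and those of *rpl11.S* overlapped with both.

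The exit tunnel is lined or surrounded by *rpl4*, *rpl17*, *rpl19*, *rpl23a*, *rpl31*, *rpl35* and *rpl39*, which were all measured with 14 Xl-PSIDs. Of these, 13 had a mean of at least 14, and the means ran from 13.94 for an Xl-PSID of *rpl17.S* to 15.49 for *rpl23a.S*. The Xl-PSID of the symbol *rpl19-b*, with a mean of 1.99, was counted apart from *rpl19* and is not among them. The values of *rpl4.L*, whose protein reaches into the tunnel, were 14.86, 15.11 and 15.16, and those of *rpl4.S* were 15.18, 15.26 and 15.43. The gene *rpl39*, which codes for one of the smallest ribosomal proteins, had 14.94, 15.12 and 15.08 for L and 14.99, 15.09 and 15.10 for S. The gene *rpl26* of the same region was not analysed here.

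Around the mRNA path of the small subunit, 11 of 13 Xl-PSIDs of *rps2*, *rps3*, *rps6*, *rps15*, *rps23* and *rpsa* were detected and 10 had a mean of at least 14. The gene *rps23.L*, a protein of the decoding centre, had 15.18, 15.20 and 15.22 on s50_1, s50_2 and s50_3. The mRNA entry protein gene *rps3* had 4 Xl-PSIDs with means from 14.93 to 15.09. The laminin receptor gene *rpsa* had 14.97 ± 0.11 for L and 15.12 ± 0.06 for S. The Xl-PSIDs not detected were 1 of *rps2.L* (1.88, 1.90 and 1.91) and the one of *rps15.S*, while another Xl-PSID of *rps2.L* had 15.30, 15.36 and 15.32. The gene *rps6*, whose protein is phosphorylated by the S6 kinases in response to nutrients and growth factors, had 11.86, 12.57 and 12.24. It is considered again with the Xl-PSIDs that carry several symbols.

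Paralogs that differ from the common ribosomal proteins were the dimmest by role. Of 6 Xl-PSIDs for *rpl3l*, *rpl22l1* and *rpl7l1*, 2 were detected and 0 had a mean of at least 14. The gene *rpl3l.L*, which in mammals replaces *rpl3* in heart and skeletal muscle, was at the dark end with all of its 3 Xl-PSIDs. They had 2.02, 2.09 and 2.15, then 2.15, 2.44 and 2.49 on s50_1, s50_2 and s50_3, and the remaining one had a mean of 2.15 ± 0.13. The 5 Xl-PSIDs of *rpl3.L* had means from 13.54 to 14.91, so the ranges of the *rpl3* and *rpl3l* Xl-PSIDs were far apart on each array. The gene next to *rpl3l.L* in the RefSeq annotation of the assembly Xenopus_laevis_v10.1 is *rps2.L*, whose brightest Xl-PSID had a mean of 15.33. The paralog of *rpl22*, *rpl22l1.L*, was bright with 13.73, 13.95 and 13.99, while the 3 Xl-PSIDs of *rpl22.S* had means from 14.63 to 15.30. The gene *rpl7l1.L*, related to *rpl7* and, in yeast, to a factor of ribosome assembly, had 13.05, 13.35 and 13.47 for one Xl-PSID and between 1.98 and 2.01 for the other. The level of *rpl7.L* was 14.95, 14.99 and 15.12.

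The gene *rpl38* was taken up by name because its loss in the mouse mutant Tail short disturbs the skeleton and the middle ear. Its Xl-PSID Xl2.47191.1.S1_a_at had 15.20, 15.28 and 15.16 on s50_1, s50_2 and s50_3. A second Xl-PSID with the same symbol, Xl2.47191.2.S1_at, had 2.09, 2.15 and 2.15. The 2 Xl-PSIDs of this gene thus lay 13.08 apart on average with SDs of 0.06 and 0.03.

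Such splits within a gene were common among the ribosomal protein genes. The same counts over all genes of the array with several Xl-PSIDs were not computed, so the splits are not shown to be particular to these genes. Of the 72 genes, 31 had 1 Xl-PSID and 41 had several, up to 5. Among the 41, the brightest and the dimmest Xl-PSID differed by 6.60 in the median, with 15 genes below 1 and 24 above 5. In 15 genes some Xl-PSIDs were detected and others not. Of the 22 undetected Xl-PSIDs, 15 belonged to a gene with a detected one and 14 to a gene with one at a mean of at least 14. Likewise, 19 of the 24 Xl-PSIDs between 4 and 14 belonged to a gene with one at a mean of at least 14. Of the 31 genes with 1 Xl-PSID, 25 had a mean of at least 14.

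**Figure D2:**
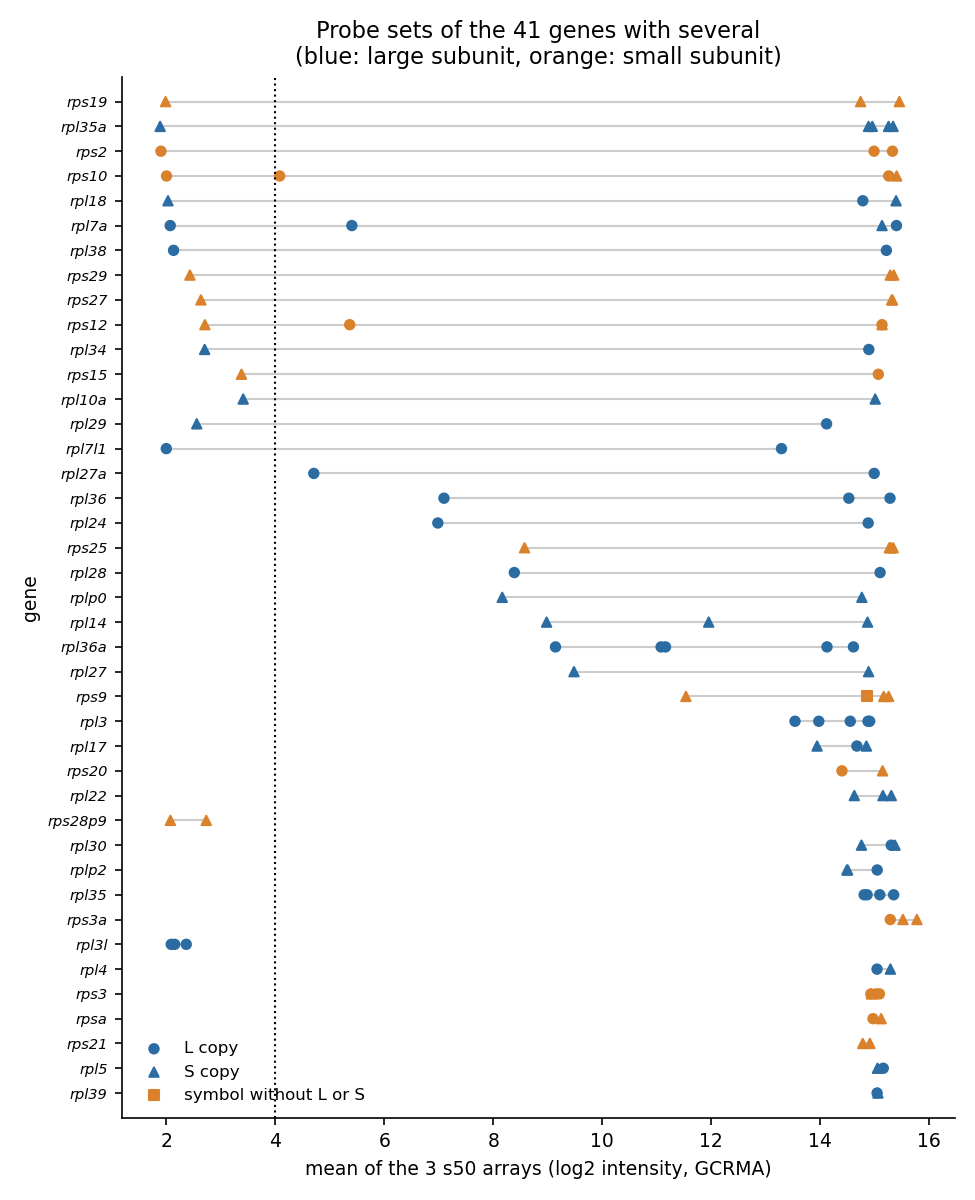
Mean intensity (x axis, log2) of every Xl-PSID of the 41 genes with several, 1 gene per line ordered by the gap between its dimmest and brightest Xl-PSID. Circles are L copies, triangles S copies and squares symbols without L or S, blue is the large and orange the small subunit, and the dotted line marks 4. In 24 of the genes the gap exceeds 5.

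The largest gaps within a single copy were found in *rps19.S*, *rpl35a.S*, *rps2.L*, *rpl18.S*, *rpl7a.L* and *rps10.L*, between 13.26 and 13.47. The ID also gives the orientation of the source sequence as S or A. The dark Xl-PSID had A in *rps2.L*, *rpl7a.L* and *rps10.L*, and S in *rps19.S*, *rpl35a.S* and *rpl18.S*. The bright one had A in *rps2.L* and S in the others. For *rps19.S*, the bright Xl-PSID had 15.39, 15.49 and 15.47 on s50_1, s50_2 and s50_3 and the dark one 1.92, 2.06 and 1.97. The values of *rpl35a.S* ran from 1.88 ± 0.02 to 15.34 ± 0.06 over 5 Xl-PSIDs, of which 4 had means of 14.89 or more. A single dark Xl-PSID stood apart from the rest in both genes. In *rps29.S* the bright and the dark Xl-PSID bore the same ID apart from the ending. Xl2.2525.1.S1_a_at had 15.24, 15.35 and 15.26, and Xl2.2525.1.S1_at had 2.16, 2.70 and 2.43.

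The undetected Xl-PSIDs of genes with a detected one were those of *rpl35a.S*, *rps2.L*, *rps19.S*, *rpl7l1.L*, *rps10.L*, *rpl18.S*, *rpl7a.L*, *rpl38.L*, *rps29.S*, *rps27.S*, *rps12.S*, *rpl10a.S*, *rpl34.S*, *rpl29.S* and *rps15.S*. The other 7 came from the 4 genes with no detected Xl-PSID. These genes were *rpl3l* and 3 others, each named here in full. The symbol *rps28p9.S*, which is named after a human pseudogene, had means of 2.07 and 2.73, and *rps15a.S* had 3.16, 3.24 and 3.24. The symbol *rpl19-b* had 1.99 ± 0.02, while *rpl19.L* had 15.29, 15.30 and 15.39. Of the 22 Xl-PSIDs, 15 stayed below 3 on every array and 2 reached 4 on an array.

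For 5 genes the brightest Xl-PSID was detected but stayed below 14. These were *rpl22l1.L* and *rpl7l1.L*, given above, and *rps4x.S*, *rps6.L* and *rpl37.S*. The gene *rps4x.S*, related to a gene that is X-linked in humans, had 13.10, 12.99 and 12.36 on s50_1, s50_2 and s50_3. The dimmest of the 5 was *rpl37.S*, a large subunit protein gene with a single Xl-PSID, with 6.17, 7.43 and 6.47.

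A further 18 Xl-PSIDs carried several symbols, at least 1 of them a ribosomal protein, and fell outside the naming rule. All 18 had means of at least 14, from 14.85 to 15.49. Several of them covered genes that were dim among the members. The Xl-PSID shared by *rps6.S* and *rps6.L* had 15.42, 15.43 and 15.46 on s50_1, s50_2 and s50_3, where the one of *rps6.L* alone had a mean of 12.22. The Xl-PSID shared by *rps15a.S* and another symbol had 15.46, 15.49 and 15.52, where the one of *rps15a.S* alone had 3.21. That shared by both copies of *rps4x* had 15.09, 15.08 and 15.12, where the one of *rps4x.S* alone had 12.82. In these 3 genes the intensity of the shared Xl-PSID was the higher one on every array.

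The endings of the IDs, which the array's maker uses to mark how far probes are shared, went with the intensities. An ending of a_at marks probes that match several transcripts of 1 gene, s_at probes shared by transcripts of different genes, and x_at probes that partly match other sequences. All 28 members with a_at and all 19 with x_at were detected, as were 12 of 13 with s_at. Of the 89 members with the plain ending, 68 (76.4%) were detected. Over all Xl-PSIDs the detected shares were 78.3% for a_at, 62.3% for x_at, 73.5% for s_at and 63.8% for the plain ending. Of the 22 undetected members, 21 had the plain ending and the other one was an s_at of *rpl3l.L*. By the letter that the ID gives for the orientation of the source sequence, 113 of 128 members with S (88.3%) and 14 of 21 with A (66.7%) were detected, against 65.3% and 64.5% of all Xl-PSIDs. Of the 22 undetected members, 7 had A and 15 had S.

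L and S homeologs could be set side by side for 17 genes, using the brightest Xl-PSID of each copy. Probes of the 2 copies differ or may be shared, so a difference in intensity is not a measured difference in transcript. In 14 genes both copies were detected, and their means differed by 0.16 in the median, by 0.75 at most and by 0.0013 at least. These differences were steady: from array to array the difference of a gene shifted by 0.097 in the median and by 0.21 at most. In 12 of the 14 genes the sign was the same on every array, L brighter in 4 and S brighter in 8. The exceptions were *rpl39* and *rps12*. The L Xl-PSID compared ended in x_at, the ending for partial matches to other sequences, in *rplp2*, *rpl7a* and *rpl39*. The S Xl-PSID compared ended in s_at, the ending for shared probes, in *rpl17*, *rpl30*, *rps3* and *rps3a*. With the S Xl-PSID of plain ending instead, L was the brighter on every array in *rpl17* and *rpl30*. The L and S means were then 14.67 and 13.94 for *rpl17* and 15.30 and 14.76 for *rpl30*.

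**Figure D3:**
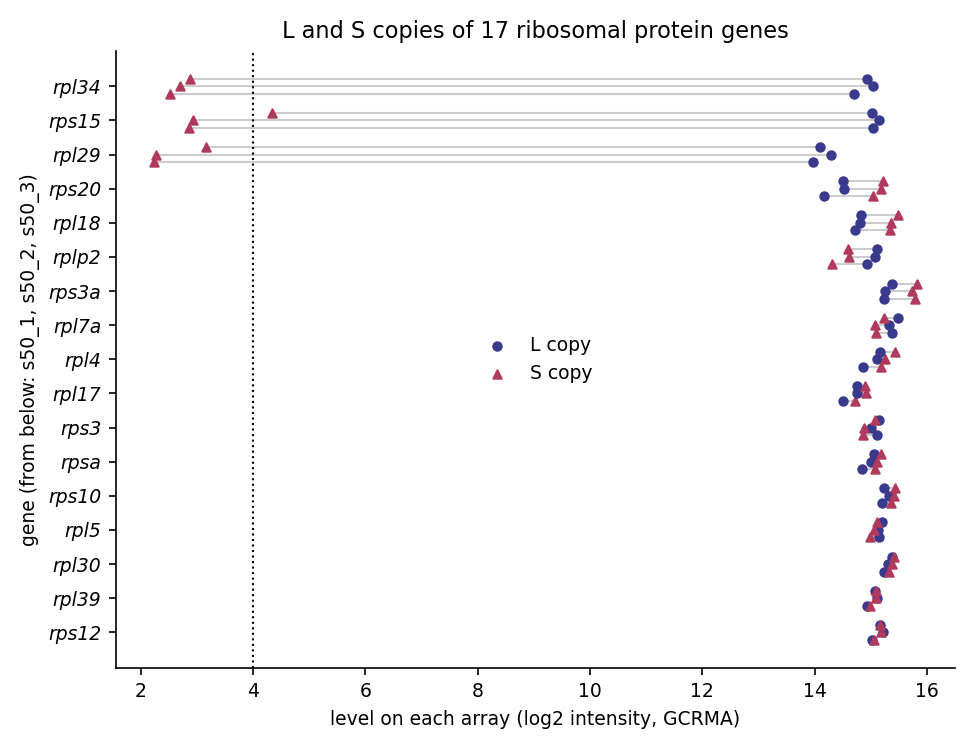
Intensity (x axis, log2) of the brightest L (circles) and S (triangles) Xl-PSID of 17 genes, with 3 lines per gene for s50_1, s50_2 and s50_3 from below, ordered by the size of the difference. In *rpl34*, *rps15* and *rpl29* the S copy lies near or below the dotted detection line at 4, and in the other 14 genes the copies differ by at most 0.75 on average.

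The widest gap among genes with both copies detected was that of *rps20*, a protein of the head of the small subunit. On s50_1, s50_2 and s50_3 the L copy had 14.17, 14.52 and 14.50 and the S copy 15.04, 15.18 and 15.22. The copies did not overlap, and L minus S was −0.75 ± 0.11. The next gaps were −0.61 ± 0.05 for *rpl18*, 0.54 ± 0.08 for *rplp2* and −0.49 ± 0.05 for *rps3a*. In each of these the L values and the S values did not overlap across the arrays. The L Xl-PSID of *rplp2* ended in x_at and the S Xl-PSID of *rps3a* in s_at, so their intensities may not be those of 1 copy alone. The smallest gap was that of *rps12*, with 15.02, 15.22 and 15.16 for L and 15.06, 15.18 and 15.17 for S. It was followed by −0.02 ± 0.04 for *rpl39* and −0.07 ± 0.03 for *rpl30*. The L Xl-PSID of *rpl39* ended in x_at and the S Xl-PSID of *rpl30* in s_at.

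In 3 genes the L copy was bright and the S copy was not detected. The gene *rpl34* had 14.70, 15.04 and 14.94 for L against 2.52, 2.71 and 2.88 for S on s50_1, s50_2 and s50_3. Its only L Xl-PSID ended in s_at, so its probes may be shared and its intensity may not be that of the L copy alone. The decoding site protein gene *rps15* had 15.03, 15.14 and 15.03 for L against 2.86, 2.93 and 4.34 for S. The gene *rpl29* had 13.97, 14.28 and 14.10 for L against 2.24, 2.27 and 3.17 for S. These were the only genes whose copies differed by at least 1 in the same direction on every array. Each S copy was represented by a single Xl-PSID, and dark Xl-PSIDs of this kind also occurred in genes whose same copy was bright elsewhere. With the mean of all Xl-PSIDs of a copy in place of the brightest, 7 genes differed in this way instead of 3. For *rps15*, an Xl-PSID that carries both the L and the S symbol had 15.26, 15.37 and 15.33.

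The members repeated closely between the arrays. Detected members had a median SD of 0.084, against 0.48 over all detected Xl-PSIDs. Without s50_1 these medians were 0.044 and 0.36. Among detected Xl-PSIDs, spread was lower at high than at medium intensity, so members were also set beside Xl-PSIDs of the same broad intensity range. Above 14, the median SD was 0.070 for the 103 members and 0.100 for the 326 other Xl-PSIDs. Intensity was not matched within this range. Of these members, 64 lay between 15 and 16, where all 120 Xl-PSIDs had a median SD of 0.060. The other 39 lay between 14 and 15, where all 309 had 0.13. Between 8 and 14 the median SD was 0.25 for 17 members and 0.42 for all. Between 4 and 8 it was 0.95 for 7 members and 0.77 for all. Intensity was not matched within these ranges either. Between 13 and 14, where all 818 Xl-PSIDs had a median SD of 0.21, the 5 members had SDs from 0.14 to 0.28. The bright members thus varied little, and the few dim ones varied as dim Xl-PSIDs do.

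**Figure D4:**
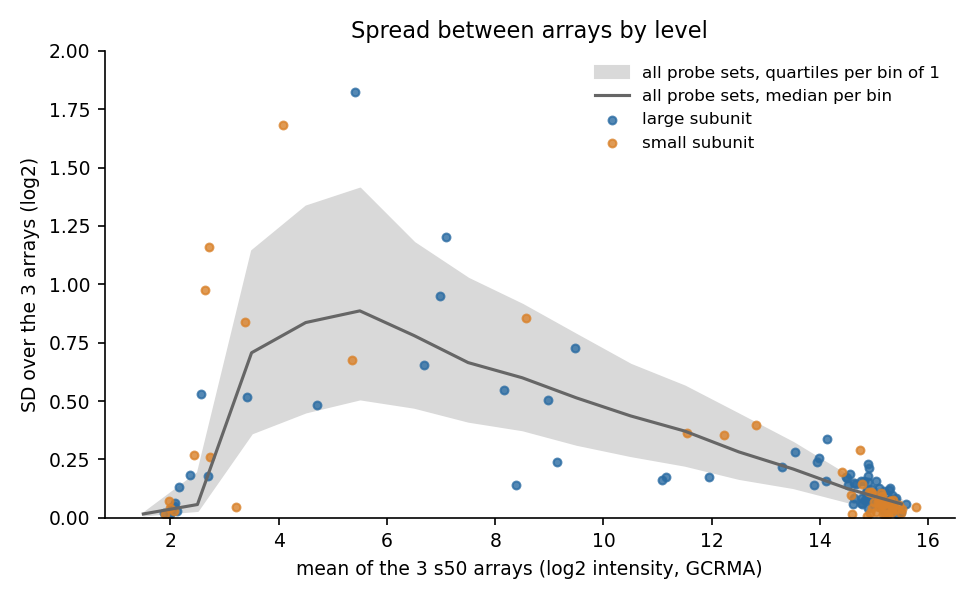
SD over the 3 *s50* arrays (y axis, log2) against mean intensity (x axis, log2) of each ribosomal protein Xl-PSID, blue for the large and orange for the small subunit, with the median (line) and quartiles (band) of all Xl-PSIDs in bins of 1. The 103 members above 14 have SDs of 0.34 or less.

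The smallest spread was that of an Xl-PSID of *rps9*, a small subunit protein, with 14.86, 14.86 and 14.87 on s50_1, s50_2 and s50_3. The values of *rps13.L* were 14.58, 14.59 and 14.61. Above a mean of 14 the widest range was 0.62, in an Xl-PSID of *rpl36a.L* with 13.74, 14.28 and 14.36. Among detected members 5 (3.94%) had a range of at least 1.5, against 26.5% of all detected Xl-PSIDs.

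All 5 were dim Xl-PSIDs of genes with a bright Xl-PSID. The widest of them belonged to *rps10.L*, at 2.23, 4.48 and 5.52 on s50_1, s50_2 and s50_3, while the bright one of that copy had 15.20, 15.33 and 15.24. For *rpl7a.L*, the dim Xl-PSID had 4.37, 4.33 and 7.51. The dim Xl-PSID of *rpl36.L* had 5.78, 7.37 and 8.13. Each of these 3 was highest on s50_3, but the other 2 were not. The dim Xl-PSID of *rpl24.L* had 7.53, 7.53 and 5.89, and that of *rps25.S* had 7.76, 9.47 and 8.49. Some other dim Xl-PSIDs differed widely without reaching 1.5. That of *rpl27.S* had 10.21, 9.47 and 8.76, that of *rps12.L* had 4.70, 5.33 and 6.06, and that of *rpl14.S* had 8.44, 9.06 and 9.44. The dim Xl-PSID of *rpl27a.L*, among the 5 dimmest detected, had 4.49, 4.37 and 5.26, while the bright one of that copy had 14.99 ± 0.06. The directions thus differed from gene to gene among the dim Xl-PSIDs. Among the undetected, *rps12.S* (2.02, 2.05 and 4.05) and *rps27.S* (2.04, 2.10 and 3.76) had a range of at least 1.5.

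Small as they were, the differences between arrays ran one way in most members. Of the 127 detected members, 103 (81.1%) had their lowest value on s50_1, 14 on s50_2 and 8 on s50_3, with 2 tied, against 42.1% of all detected Xl-PSIDs with the lowest value on s50_1. The detected members differed from their own means by a median of −0.069, 0.020 and 0.053 on s50_1, s50_2 and s50_3. Over all detected Xl-PSIDs these medians were −0.033, 0.032 and 0.053. Members share pools, arrays and often probes, so their number says nothing of chance. The pattern was noticed in these data and is a description of 3 pools.

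Among Xl-PSIDs with a mean of at least 14, 86 of 103 members (83.5%) were lowest on s50_1, against 52.9% of all such Xl-PSIDs and 141 of the 326 others (43.3%). Their median differences were −0.061, 0.017 and 0.051 on s50_1, s50_2 and s50_3, and those of the others were −0.014, 0.002 and 0.024. The others still held the 18 ribosomal protein Xl-PSIDs with several symbols, not all of which were lowest on s50_1, and spiked-in controls. Of these bright members, 60 were lowest on s50_1 and highest on s50_3, against 35.9% of all Xl-PSIDs at this intensity with that order, and 0 had their highest value on s50_1, against 24.5%. Both subunits took part, with 54 of 63 large and 32 of 40 small subunit Xl-PSIDs lowest on s50_1, and so did both homeologs, with 39 of 50 L and 46 of 51 S Xl-PSIDs. After quantile normalization of the arrays, 60 of the 103 were lowest on s50_1 and their median difference there was −0.022, so the shift was smaller once the arrays had the same intensity distribution. The share of other Xl-PSIDs lowest on s50_1 after that step was not computed. Bright members lowest on s50_2 numbered 12 and came from *rpl3.L* (3 Xl-PSIDs), *rps3.L* and *rps3a.S* (2 each), *rpl5.L*, *rpl7a.L*, *rpl7a.S*, *rpl8.S* and *rps9*. One of those of *rpl3.L*, a protein of the peptidyl transferase region, had 14.93, 14.62 and 15.08.

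**Figure D5:**
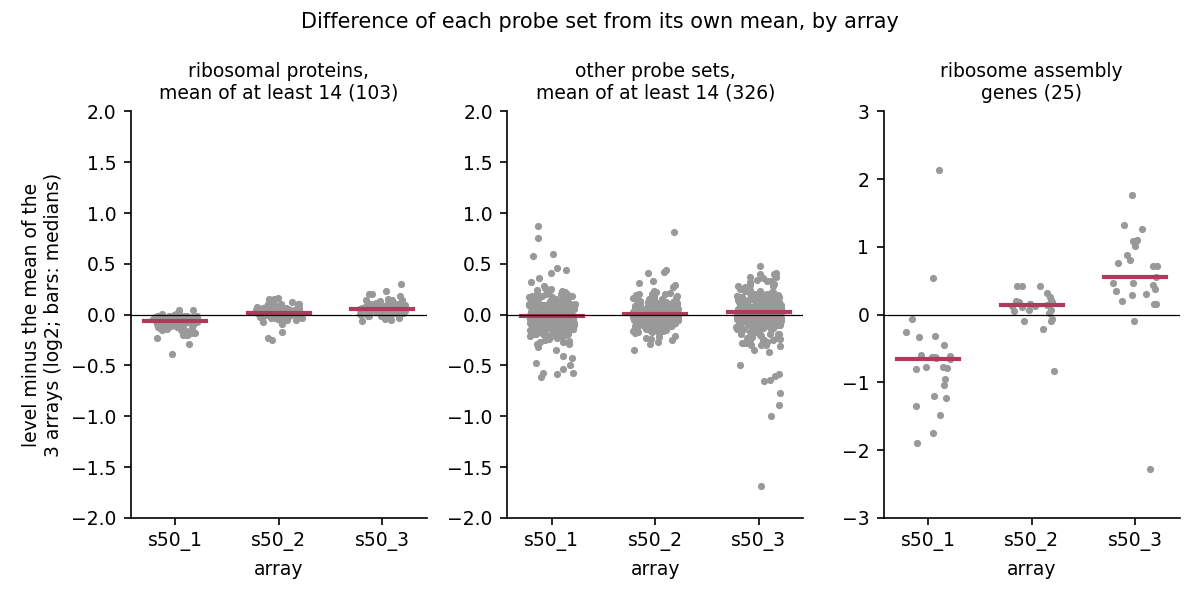
Difference of each Xl-PSID from its own mean over the 3 arrays (y axis, log2) on s50_1, s50_2 and s50_3, for the 103 ribosomal protein Xl-PSIDs with a mean of at least 14, the 326 other Xl-PSIDs at that intensity and 25 ribosome assembly genes. Points are Xl-PSIDs and bars medians, and the y axis of the right plot covers a wider range. The medians on s50_1 are −0.061, −0.014 and −0.66.

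Other measures of the same pools moved too. A set of 18 spiked-in control Xl-PSIDs split by intensity. Some further control Xl-PSIDs of the array were not in this set. Of the 18, the 7 with a mean of at least 14 were all highest on s50_1, with median differences of 0.095, −0.005 and −0.070 on s50_1, s50_2 and s50_3. Of the 11 dimmer ones, 10 were lowest on s50_1, with median differences of −0.12, 0.020 and 0.10. At the intensity of the bright members, the spiked-in controls of this set thus differed between arrays in the opposite direction. Of 7 listed skeletal muscle markers 6 were measured. The 5 detected ones were all lowest on s50_1, against 42.1% of all detected Xl-PSIDs. Their median differences were −0.73, 0.30 and 0.43, while the myogenic regulator *myod1* stood at 2.02. One of the 5, *acta1*, had 2.95, 6.89 and 6.13, and so passed the detection threshold only through s50_2 and s50_3. The summed log2 intensity of the 6 was 56.7, 64.5 and 64.8. Of 5 neuron markers 4 were detected, with median differences of 0.45, 0.01 and −0.65. Their summed log2 intensity with *elavl3*, which was not detected, was 58.7, 53.6 and 51.4. The values of *elavl3* were 5.86, 2.59 and 2.92, so part of the fall in this sum came from that gene. The 3 cartilage markers measured were detected, with median differences of 0.19, 0.13 and −0.25. Of these, *matn1* (8.29, 9.12 and 8.53) was lowest on s50_1, while *col2a1* and *sox9* were highest there. Of 3 epidermis markers 2 were detected, with median differences of 0.005, −0.001 and −0.004. These 2 differed in opposite directions, *krt19* with 14.74, 14.66 and 15.09 and *perp* with 12.87, 12.94 and 12.50. All 5 erythroid markers were detected, at differences of 0.003, 0.046 and −0.050. Of the 9 hair cell markers listed *myo6* was the one analysed here (12.85, 12.15 and 12.96). Of 6 listed markers of otolith and tectorial membrane, 0 were analysed here. The pools also differed in their number of animals and, for s50_3, in the amount of RNA. The part of any of these in the ribosomal protein differences was not tested.

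Genes linked to the ribosome or to the control of its messages were read from lists, with the brightest Xl-PSID for a gene. Of 4 ribosomal proteins outside the naming rule, *fau*, which encodes a small subunit protein fused to a ubiquitin-like one, was measured, with 15.18, 15.27 and 15.23 on s50_1, s50_2 and s50_3. Of 16 other genes whose vertebrate messages are known for the same 5′ pyrimidine run, 12 were measured and all 12 detected, with a median of 14.16. Not all of these are translation genes. The detected share of all genes by their brightest Xl-PSID was not computed. The elongation factor gene *eef1b2* had 15.08, 15.11 and 15.19, and *naca*, which shields new proteins at the exit tunnel, had 14.98, 15.05 and 15.17. In this list 8 of 12 genes were lowest on s50_1, where the shares were 42.1% of all detected Xl-PSIDs and 52.9% of those at 14 or more, and the median differences were −0.089, −0.016 and 0.15. The other 4 were *eef1d*, *nap1l1*, *npm1*, a nucleolar protein, with 13.61, 13.80 and 13.37, and *pabpc1*, the poly(A)-binding protein, with 13.92, 13.72 and 14.09.

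Ribosome assembly genes were less bright and differed far more between the pools. Of 31 listed, 25 were measured and all were detected by their brightest Xl-PSID, at means from 7.89 to 14.84. Not every Xl-PSID of these genes was detected, as in *grwd1* with 1 of 3. The detected share of all genes read this way was not computed. The median SD of the 25 was 0.72, against 0.42 for all Xl-PSIDs between 8 and 14. Among them 10 had a range of at least 1.5, against 26.5% of all detected Xl-PSIDs. On s50_1, s50_2 and s50_3 the median level was 9.82, 10.70 and 11.03, and the median differences were −0.66, 0.14 and 0.56. Of the 25, 22 were lowest on s50_1, against 42.9% of the 14853 Xl-PSIDs with means from 8 to 14, and 20 were highest on s50_3, against 42.8% of all detected Xl-PSIDs. As for the bright ribosomal proteins, the median difference was lowest on s50_1 and highest on s50_3, and it was wider on every array.

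The nucleolar RNA methyltransferase gene *nop2* had 7.37, 9.39 and 11.03 on s50_1, s50_2 and s50_3. The gene *rrs1*, needed for the maturation of the large subunit, had 6.14, 8.31 and 9.21, and *tsr1*, of the small subunit, had 8.79, 10.40 and 11.22. The large subunit assembly gene *bop1* had 7.65, 8.96 and 9.93. Each of these was lowest on s50_1 and highest on s50_3, as was *gnl3* (9.47, 10.82 and 11.81), which encodes nucleostemin. The genes not lowest on s50_1 were *fbl*, the methyltransferase fibrillarin, with 12.17, 10.16 and 7.75, *ncl*, nucleolin, with 12.18, 10.81 and 11.94, and *sbds*, a factor that releases the large subunit for translation, with 12.63, 12.60 and 12.86. The brightest Xl-PSID of fibrillarin was thus highest on s50_1 and lowest on s50_3, the reverse of most of the list. It was 1 of 4 detected for this gene, had an SD of 2.21, and the others are not reported here. Besides *fbl* and *ncl*, the genes without a single highest value on s50_3 were *nop10* (10.79, 11.54 and 11.02), *bysl* (9.01, 10.21 and 10.14) and *gnl2* (14.52, 15.00 and 15.00).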

How the data were processed

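RNA of 3 pools of *s50* inner ears was hybridized to Affymetrix X. laevis Genome 2.0 arrays. The log2 intensities of 32635 Xl-PSIDs that the authors deposited had been made by GCRMA, using JMP Genomics 5.0, and were taken as they stand. It is not stated whether GCRMA covered these 3 arrays alone. Raw scans and arrays of other stages were not analysed here. Symbols came from the platform's annotation. Gene identifiers of 147 of the 149 Xl-PSIDs were found in RefSeq, and updating symbols through them added 0 members and removed 0. Members, lists and thresholds were chosen with earlier results of these data known.

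Means, SDs, ranges and differences from an Xl-PSID's own mean were computed in Python 3.11.15 with numpy 2.4.6 and pandas 2.3.3, and the code was tested on simulated data. Precision rests on 3 arrays. Near-identical homeologs and paralogs may share probes. Genes named are all undetected members, the 10 brightest and 5 dimmest detected, the 10 with the largest and 5 with the smallest SD, those with listed roles, 9 genes by their L and S difference and 6 by the gap between Xl-PSIDs. Other names, *rpl36a.L* and the genes of the pathway lists among them, were chosen after their values were seen. Alternatives were other detection thresholds, the median of the arrays, quantile normalization, fewer Xl-PSIDs, 1 per copy and leaving out each array. Promoter and protein sequences were not analysed here, and some ribosomal protein genes are not reported here.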

Additional observations from a re-analysis of the deposited data

How the results depend on the processing

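No paired analysis was possible because the 3 arrays form 1 group. The results are limited by 3 pools, by probes that homeologs and paralogs may share, and by intensities near the top of the scale, where differences may be compressed. The median level of the members was 14.89 as reported, 14.78 without Xl-PSIDs ending in s_at or x_at (117 left) and 15.09 with the brightest Xl-PSID of each copy (90 left). For the large subunit the brightest per copy gave 15.05. For the small subunit it gave 15.13, and leaving out s_at and x_at gave 14.86. With a range of at least 1 in place of 1.5, 8 detected members differed between arrays, and with any 1 array left out the count at 1.5 was 2 to 3 instead of 5. With the mean of a copy's Xl-PSIDs, 7 genes in place of 3 differed between L and S. The cause of these moves was not tested beyond the smaller number of arrays or Xl-PSIDs.

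Of the values computed under alternatives, these 10 moved, while 87 stayed within the spread between arrays or within 1.5 times the count. For the median differences on each array, that spread was 0.084 for the members and 0.72 for the ribosome assembly genes. It was wider than the differences themselves, so even their loss would have counted as staying. The same 0.084 was the limit for the median SD of the members. One median difference changed sign, that of the detected members on s50_2, from 0.020 to −0.016 without s50_1, and the others kept theirs. The median SD of the detected members was 0.044 without s50_1 and 0.099 without s50_2, in place of 0.084. The counts of the lowest array and the alternatives for the ribosome assembly genes were added after seeing the data. Detected members lowest on s50_1 numbered 79 after quantile normalization, and ribosome assembly genes 22. For neither count was the share over all Xl-PSIDs computed after that step.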
